A study of Mus musculus with 8 samples.

Results

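ATP-binding cassette (ABC) transporter genes were followed in leukemic bone marrow cells with and without Ikzf2, the gene of the Ikaros-family transcription factor Helios. The members are the genes whose symbol is Abc followed by a subfamily letter from a to g and a number. This naming rule found 50 of the 24421 gene symbols in each library, and all 50 matched a RefSeq gene by symbol. Of the 50, 16 belong to subfamily A, 10 each to B and C, 4 to D, 1 to E, 3 to F and 6 to G. Both groups were C57BL/6 mouse cells transformed by the MLL-AF9 fusion oncogene, thawed from frozen marrow and sorted for high c-KIT, which immature blood cells carry. The WT group came from Ikzf2f/f mice and the KO group from Ikzf2Δ/Δ mice, with 2 RNA-seq libraries each. The labels give no Cre line, deleted exon, age or pooling of animals. They do not say whether the libraries of a group came from separate mice. Sex-linked genes, given below, set the 2 KO libraries apart from each other, but not the 2 WT libraries. The p-values measure the spread between libraries, which may be partly technical.

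Most ABC proteins use ATP to move lipids, peptides, drugs or metabolites across a membrane. A transporter joins membrane-spanning segments to ATP-binding domains, either in 1 protein or as a dimer. Subfamilies A and G hold many lipid exporters, B and C hold drug pumps, mitochondrial transporters and channel regulators, and D serves peroxisomes and lysosomes. Subfamilies E and F carry the ATP-binding domains without membrane spans and act on ribosomes. In blood, drug efflux pumps are known from stem cells and from drug-resistant leukemia, and the sterol exporters from myeloid cells.

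Gene counts came to between 16006081 and 19286090 per library. Ikzf2 itself was at 283 and 271 counts per 1000000 (CPM, scaled with TMM factors) in WT and at 10.9 and 26.5 CPM in KO. Kit, the gene of the sorted receptor, was at 216 and 330 CPM in WT, against 236 and 376 in KO. The library labelled KO replicate 1 stood apart in sex-linked genes, with Xist at 833 CPM against 0.352 to 0.600 CPM in the other 3. The Y-linked gene Ddx3y had a single count there (1), while KO replicate 2 had 1194 counts and the WT libraries 2190 and 1931. By these genes the KO libraries held cells of different sex, so they were not repeats from 1 mouse. For the WT libraries, which were alike in both genes, this stays unknown. The summed level of 12 neutrophil granule markers was 5844 and 6603 CPM in WT, against 36044 and 31160 in KO. That of 9 dendritic cell markers, MHC class II genes among them, was 325 and 189 CPM in WT, 1854 CPM in KO replicate 1 and 408 CPM in KO replicate 2. Outside KO replicate 1 this sum was mostly Flt3, which was also listed as a marker of immature blood cells. Flt3 had 248 and 153 CPM in WT, 69.1 CPM in KO replicate 1 and 286 CPM in KO replicate 2. Of the 10 erythroid markers, the 4 globin genes had no count in any library, while Tfrc, which dividing cells also carry, was at 135 to 259 CPM and Klf1 had 18 to 23 counts. The 9 T and NK cell markers summed to 69.7 to 136 CPM, mostly from Nkg7 (64.8 to 133 CPM), with Cd3e at 1 count or less. The 8 B cell markers summed to 18.0 to 36.2 CPM, mostly from Cd79b (16.9 to 33.8 CPM), with Pax5 at 1 count or less. The part these differences play in the results below was not tested unless a value is given.

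Of the 50 ABC genes, 42 had a count in at least 1 library and 34 had enough counts to be tested. No tested member passed the comparison of KO with WT. By edgeR's quasi-likelihood test 0 members had an adjusted p under 0.05, where 0% of all 12623 tested genes did. At an unadjusted p under 0.05 there were 5 members, where 7.67% of all genes passed. Of these, Abcc4, Abcg3 and Abca9 were higher in KO, beside 4.15% of all genes, and Abcg8 and Abcb4 were lower, beside 3.52%. DESeq2 called 0 members, against 2.11% of all genes (1.26% higher and 0.859% lower), and voom called 0 members and 0 genes in all. The lowest adjusted p of a member was 0.460 by edgeR (Abcc4) and 0.0515 by DESeq2 (Abcg3). In bulk RNA, a change in the number of cells of a type and a change in RNA per cell cannot be told apart.

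**Figure D1:**
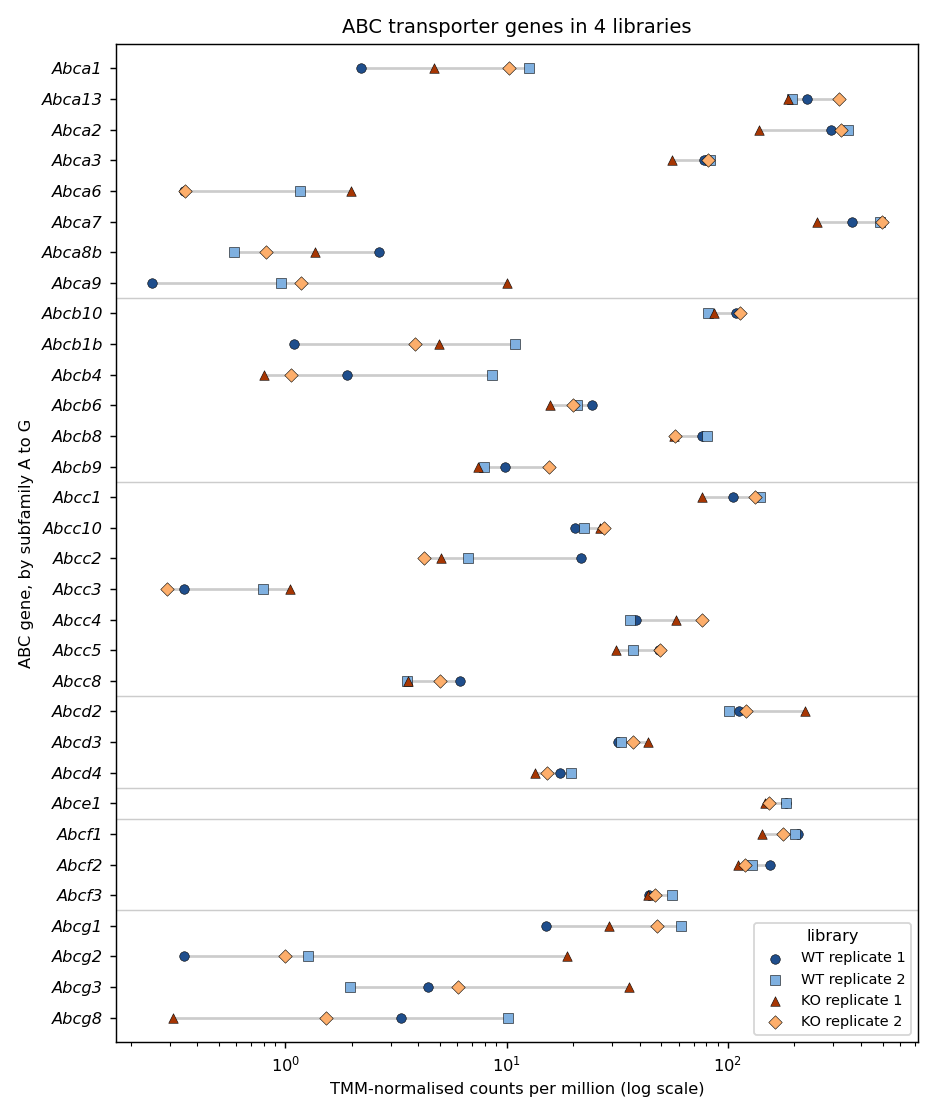
TMM-normalised CPM (log axis) of 32 of the 34 tested ABC genes, ordered by subfamily, with 1 point per library and a grey line from the lowest to the highest library. Genes of subfamilies D, E and F, Abcd2 aside, have their 4 libraries close together, while Abca9, Abcg2 and Abcg3 have KO replicate 1 far to the right. Levels of different genes are not scaled for transcript length.

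The groups did not overlap in 15 of the 34 members, 6 higher and 9 lower in KO. Among all tested genes the groups did not overlap in 37.2%, with 18.1% higher and 19.1% lower in KO. The median log2 fold change of the members was -0.12, beside -0.0043 over all genes, with 14 members above 0 and 20 below, where 49.5% of all genes lay above 0. Single values ran from -2.86 for Abcg8 to 3.60 for Abcg2. Leaving out KO replicate 1 moved the median to 0.069 and leaving out WT replicate 2 moved it to 0.0034, so its sign rested on these libraries. It became -0.33 when KO replicate 2 was left out. Libraries of the same group differed by more than 2-fold in 11 of 34 members in WT and 9 of 34 in KO, or 32.4% and 26.5%, where 13.2% and 16.7% of all genes did. In the KO libraries, 24 of 34 members were higher in replicate 2 than in replicate 1, beside 49.2% of all genes. In WT, replicate 2 was above replicate 1 in 19 of 34 members, beside 49.8%. The highest library was WT replicate 1 for 7 members, WT replicate 2 for 11, KO replicate 1 for 7 and KO replicate 2 for 9, where all genes gave 23.9%, 20.5%, 30.4% and 25.1%.

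Calls appeared only in DESeq2 fits with 1 library left out, an alternative chosen after seeing the data. Without KO replicate 2 it called 6 members: Abca9, Abcd2, Abcg2 and Abcg3 as higher and Abca2 and Abcg8 as lower, where 2.35% of all genes were called. Without WT replicate 2 it called Abca9, Abcg2 and Abcc2, beside 2.39% of all genes. Leaving out WT replicate 1 gave a call of Abcg3, beside 0.994% of all genes, and leaving out KO replicate 1 gave 0 members, beside 1.09%. In the same leave-outs edgeR called 0 members, where its share of all genes was 0.436% with WT replicate 1 left out, 1.56% with WT replicate 2 left out and 0% with either KO library left out.

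**Figure D2:**
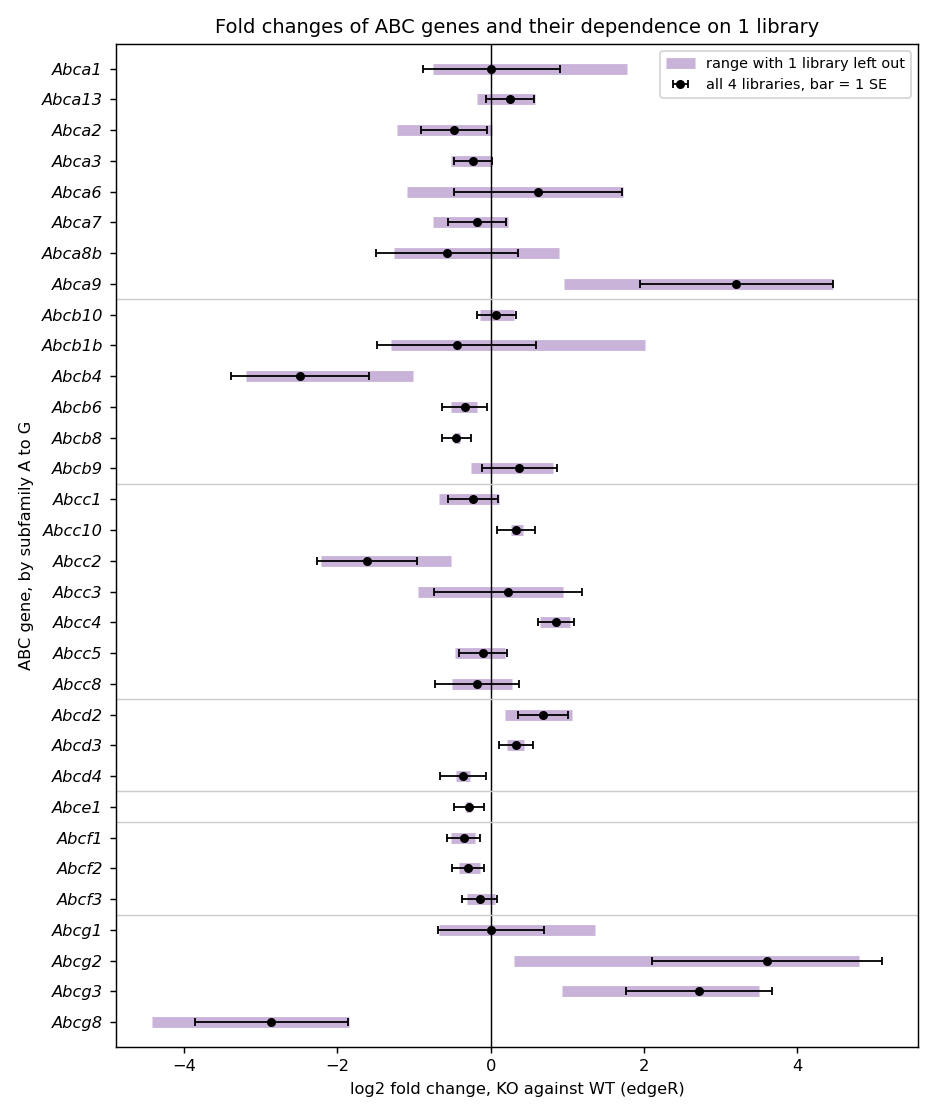
edgeR log2 fold change of KO against WT for 32 of the 34 tested ABC genes (black point, bar of 1 SE, n = 2 libraries per group), over the range reached when 1 library is left out (wide bar). Wide bars cross 0 for genes such as Abca1, Abcb1b and Abcg1, and stay on 1 side for Abcc4, Abcb8 and Abce1.

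Members were split by their mean level. The 23 tested members with a mean of at least 10 CPM over the 4 libraries had a median absolute log2 fold change of 0.29, beside 0.22 for all genes above that level. The 11 members below it had 0.62, beside 0.54 for all genes there. Sums over each subfamily were then compared between libraries. Transcript lengths were not at hand, so sums of different subfamilies were not compared with each other, and long genes weigh more in each sum.

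Subfamily E, which is Abce1 alone, and subfamily F were lower in both KO libraries. Subfamily F summed to 407 and 385 CPM in WT, against 298 and 344 in KO, and KO was at 81.1% of WT. Subfamily D summed higher in both KO libraries, at 299.5 and 299.3 CPM in WT, against 392 and 335 in KO. Its gene Abcd2 alone had 112 and 102 CPM in WT, against 222 and 121 in KO. By edgeR fold change 2 of the 4 members of D lay above 0 and 2 below. Subfamily A had 970 and 1127 CPM in WT, 653 CPM in KO replicate 1 and 1232 CPM in KO replicate 2, so its KO libraries lay on both sides of WT. Its genes Abca7, Abca2 and Abca13 held 91.2% of its counts. Subfamilies B and C also had their lowest library in KO replicate 1, at 251 and 202 CPM, beside 293 to 309 CPM and 242 to 295 CPM elsewhere. Subfamily G was lowest in WT replicate 1, at 23.4 CPM, and reached 75.2 CPM in WT replicate 2, 85.4 CPM in KO replicate 1 and 56.5 CPM in KO replicate 2. These sums were not tested.

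**Figure D3:**
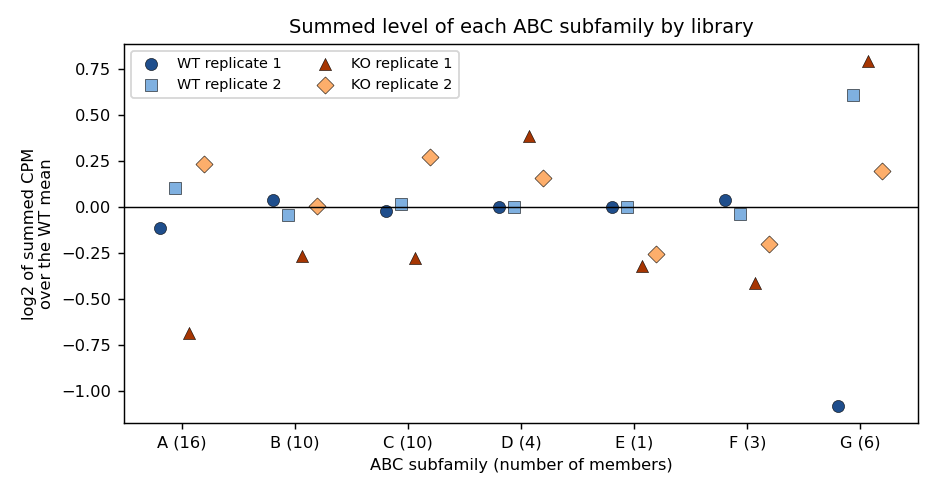
Log2 of the summed CPM of each ABC subfamily over its WT mean, with 1 point per library and the number of members in brackets. Both KO libraries lie above 0 for D and below 0 for E and F, and KO replicate 1 lies at -0.68 for A.

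The first role group exports cholesterol. Abca1 loads cholesterol and phospholipid onto apolipoprotein A-I, Abcg1 passes cholesterol on to high-density lipoprotein, and both are known targets of the oxysterol receptors LXR. LXR binds paired half-sites in DNA, and a stretch near the Abca1 start is shown with the match in capitals. It was searched as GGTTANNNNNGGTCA on either strand. This form was chosen after the Abca1 promoter had been read. It lies on the minus strand at chr4:53159940-53159969, inside the outer end of the RefSeq span of Abca1, and the match begins 67 bases before the inner start that the window table uses.
Abca1: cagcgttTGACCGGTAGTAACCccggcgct

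Only 0.0487% of all 32851 RefSeq promoter windows (GRCm38.p6, 250 bases before to 50 after a start) held this form. Among members, only Abca1 held it. The repeat of like half-sites, GGTCANNNNNGGTCA, was in 0.0761% of windows and in those of 0 members. The RefSeq table used here has no Abcg1 window.

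Abca1 had 2.2 and 12.6 CPM in WT, against 4.70 and 10.2 in KO. Abcg1 (chr17:31057694-31117984) had 15.1 and 61.5 CPM in WT, against 29.1 and 47.6 in KO. In both genes replicate 2 was the higher library of each genotype, and the groups overlapped. The log2 fold change was 0.01 for Abca1 (SE 0.90, edgeR adjusted p = 0.9998) and 0.0045 for Abcg1 (SE 0.69, adjusted p = 0.9998). Both turned negative with library sizes alone as scaling. Without WT replicate 1 they were -0.76 and -0.68, and without WT replicate 2 they were 1.77 and 1.36. A like split by replicate number stood in other genes of sterol handling: Scd2, a fatty acid desaturase, had 153 and 407 CPM in WT, against 103 and 441 in KO. Mylip, an LXR target that marks the LDL receptor for decay, had 31.5 and 56.8 CPM in WT, against 34.1 and 69.4 in KO. These 2 were chosen after their values were seen. Abcg4, a close relative of Abcg1, had 3 to 16 counts and was not tested.

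The 20 cholesterol efflux and LXR genes were all tested, and 9 lay above and 11 below 0, with a median log2 fold change of -0.11. By edgeR 0 were called, with 1 at an unadjusted p under 0.05, and DESeq2 called 0. Groups did not overlap in 8 of 20, or 40%, near the 37.2% of all genes. The receptor gene Nr1h2 (LXR beta) was at 171 and 174 CPM in WT, against 182 and 183 in KO, while Nr1h3 (LXR alpha) stayed at or below 1.36 CPM. The 2 most abundant members were Npc2, a lysosomal cholesterol carrier, with a log2 fold change of 0.10 (SE 0.27), and Scd2, with -0.04 (SE 0.80).

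Among the other lipid transporters of subfamily A, the genes with most counts were Abca7, Abca2 and Abca13. Abca7, a relative of Abca1 that moves phospholipid and acts in phagocytosis, had 364 and 485 CPM in WT, against 253 and 497 in KO. Abca2, a transporter of the lysosomal compartment known from brain, had 293 and 349 CPM in WT, against 138 and 324 in KO. Abca3, which fills the lamellar bodies of lung with surfactant lipid, had 77.7 and 82.9 CPM in WT, against 56.0 and 81.1 in KO. In each of these 3 genes KO replicate 1 was the lowest library, while KO replicate 2 lay between the WT libraries for Abca2 and Abca3 and above both for Abca7. Their log2 fold changes were -0.18 (SE 0.38), -0.48 (SE 0.43) and -0.23 (SE 0.25), and without KO replicate 1 they were 0.23, 0.011 and 0.015. Abca13 had 229 and 194 CPM in WT, against 188 and 317 in KO (log2 fold change 0.25, SE 0.31).

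Abca8b, Abca8a, Abca9, Abca6 and Abca5 form a row of neighbouring genes on chromosome 11 with gaps of 3168 to 29359 bases. Their levels differed from gene to gene along the row. Abca9 (chr11:110100749-110168274) had 5 and 18 counts in WT and 162 and 20 counts in KO, and next to it Abca6 had 7 and 22 counts in WT and 32 and 6 in KO. Abca8b had 53 and 11 counts in WT and 22 and 14 in KO, Abca5 had 8 counts or fewer per library, and Abca8a had none. The closely packed Abca14, Abca15 and Abca16 on chromosome 7 had at most 1 count in a library.

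Drug efflux pumps were the next role group. Abcc4, which exports cyclic nucleotides and nucleoside drugs (chr14:118482692-118707856), had 38.4 and 36.0 CPM in WT, against 58.1 and 76.3 in KO. Both KO libraries were above both WT libraries. KO exceeded WT by 0.85 on the log2 scale (SE 0.23, 2 libraries a group), or 1.81-fold, with an unadjusted p of 0.0131 and an edgeR adjusted p of 0.460, and DESeq2 gave an adjusted p of 0.130. It stayed between 0.64 and 1.04 in edgeR with any library left out. The promoter window at a start inside this span, the outer of the 2 starts in the window table, holds an E box, CACGTG, read the same on both strands, at chr14:118706407-118706436. This stretch is shown because Abcc4 had the smallest edgeR p of the 34 tested members.
Abcc4: acgggtctcaagCACGTGcggcttccccgc

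The E box, in capitals, was in 7.15% of all windows and in 6 of the 45 windows of members, among them those of Abca1 and Abcf1.

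Abcc2 exports conjugated bilirubin and drugs into bile. It had 21.8 and 6.68 CPM in WT, against 5.07 and 4.23 in KO, so both KO libraries were below both WT libraries, but WT replicate 1 stood far above the rest. The log2 fold change was -1.61 (SE 0.65, adjusted p = 0.652), and it was -0.52 without WT replicate 1. The 250 bases before its start at chr19:43782058-43782307 on the plus strand are shown because this was the tested pump with the largest negative edgeR fold change. The capitals mark the nuclear receptor core AGGTCA, searched on both strands and found in 16.3% of all windows and 7 of 45 windows of members.
Abcc2: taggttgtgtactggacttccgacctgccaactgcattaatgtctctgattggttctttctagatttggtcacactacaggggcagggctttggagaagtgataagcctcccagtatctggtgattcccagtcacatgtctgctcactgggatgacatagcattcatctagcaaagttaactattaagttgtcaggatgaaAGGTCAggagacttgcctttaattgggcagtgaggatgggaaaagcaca

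The leukotriene and glutathione-conjugate pump Abcc1 had 105 and 140 CPM in WT, against 76.8 and 133 in KO (log2 fold change -0.23, SE 0.33). Its groups overlapped, and without KO replicate 1 the value was 0.11. Abcc5, a pump of cyclic nucleotides, had -0.10 (SE 0.31). Abcc10 had 20.4 and 22.5 CPM in WT, against 26.4 and 27.6 in KO, with no overlap (log2 fold change 0.33, SE 0.25, adjusted p = 0.865). Abcc3 was low, at 5 to 17 counts.

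The P-glycoprotein genes were uneven. Mice carry 2 such genes, Abcb1a and Abcb1b, which lie 49571 bases apart on chromosome 5, and reads shared by these close copies may be lost or misplaced. Abcb1a had 1 count in KO replicate 1 and none in the other 3 libraries, where 0 counts allow up to 3 counts, or 0.156 to 0.167 CPM of a library's total. Abcb1b had 1.10 and 10.9 CPM in WT, against 4.95 and 3.87 in KO, with the WT libraries on both sides of KO. Its log2 fold change was -0.45 (SE 1.04), and leaving out WT replicate 2 gave 2.01, leaving out WT replicate 1 gave -1.31. Over the 11 pumps, 9 had a count and 8 were tested, 4 above 0 and 4 below. Groups did not overlap in 3 of them, or 37.5%, near the 37.2% of all genes.

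Of 19 regulators of drug efflux and glutathione genes, 17 were tested, with 10 above 0 and a median of 0.085. By edgeR 0 were called, with 3 at an unadjusted p under 0.05. DESeq2 called 3 as higher, where it called 1.26% of all genes higher: Mgst2, a microsomal glutathione transferase of leukotriene synthesis, its relative Mgst1, and Ahr, the aryl hydrocarbon receptor. Mgst2 rose by DESeq2, with 7.30 and 11.7 CPM in WT against 153 and 54.5 in KO (log2 fold change 3.45 by edgeR, DESeq2 adjusted p = 2.24e-07) and was called with any library left out. Mgst1 rose by DESeq2, with 56.8 and 74.9 CPM in WT against 150 and 131 in KO (adjusted p = 0.0135), and so did Ahr, with 2.2 and 2.49 CPM in WT against 7.67 and 7.69 in KO (adjusted p = 0.0425). Both lost their DESeq2 call with any 1 library left out, at adjusted p of 0.0504 to 0.848 for Mgst1 and 0.469 to 0.846 for Ahr.

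Abcg2, Abcg3 and Abca9 shared a pattern of 1 high library. Abcg2, the pump that marks dye-excluding stem cells and exports porphyrins, had 0.350 and 1.27 CPM in WT, 18.8 CPM in KO replicate 1 and 0.998 CPM in KO replicate 2. Abcg3, a rodent relative of Abcg2 (chr5:104935057-104982811), had 4.40 and 1.96 CPM in WT, 35.9 CPM in KO replicate 1 and 6.05 CPM in KO replicate 2. Abca9, of little known function, had 0.250 and 0.955 CPM in WT, 10 CPM in KO replicate 1 and 1.17 CPM in KO replicate 2. In each gene KO replicate 1 was the only library far from the others, and for Abcg2 the KO replicate 2 library lay between the WT libraries.

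Their log2 fold changes were 3.60 for Abcg2 (SE 1.5, edgeR adjusted p = 0.677), 2.72 for Abcg3 (SE 0.95, adjusted p = 0.594) and 3.21 for Abca9 (SE 1.26, adjusted p = 0.650). Without KO replicate 1 they were 0.30, 0.92 and 0.96. The MHC class II chaperone Cd74 stood at 2.45 and 7.96 CPM in WT, 821 CPM in KO replicate 1 and 58.6 CPM in KO replicate 2. H2-Aa and H2-Eb1, which encode class II chains, reached 397 and 282 CPM in KO replicate 1, had 23.7 and 15.9 CPM in KO replicate 2, and stayed at 5.62 CPM or less in WT. The third class II chain in the list, H2-Ab1, had 33.6 and 17.3 CPM in WT, 268 CPM in KO replicate 1 and 17.7 CPM in KO replicate 2, so its groups overlapped. Of the low dendritic cell genes, Cd209a had 99 counts in KO replicate 1 and 1 or none elsewhere, and Siglech had 12 counts there, 2 in KO replicate 2 and none in WT. Xcr1 had 3 to 6 counts in each library. Itgax and Flt3, also among the dendritic cell markers, did not peak in KO replicate 1. Itgax had 37.1 and 2.12 CPM in WT, against 10.5 and 5.58 in KO. Flt3 had 248 and 153 CPM in WT, against 69.1 and 286 in KO, with KO replicate 1 the lowest library. The chloride channel gene Cftr is an ABC protein of subfamily C under another symbol. It peaked in KO replicate 1, with 0.5 and 6.53 CPM in WT, against 59.1 and 7.81 in KO. Whether cells with class II genes carry these ABC transcripts was not tested.

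**Figure D4:**
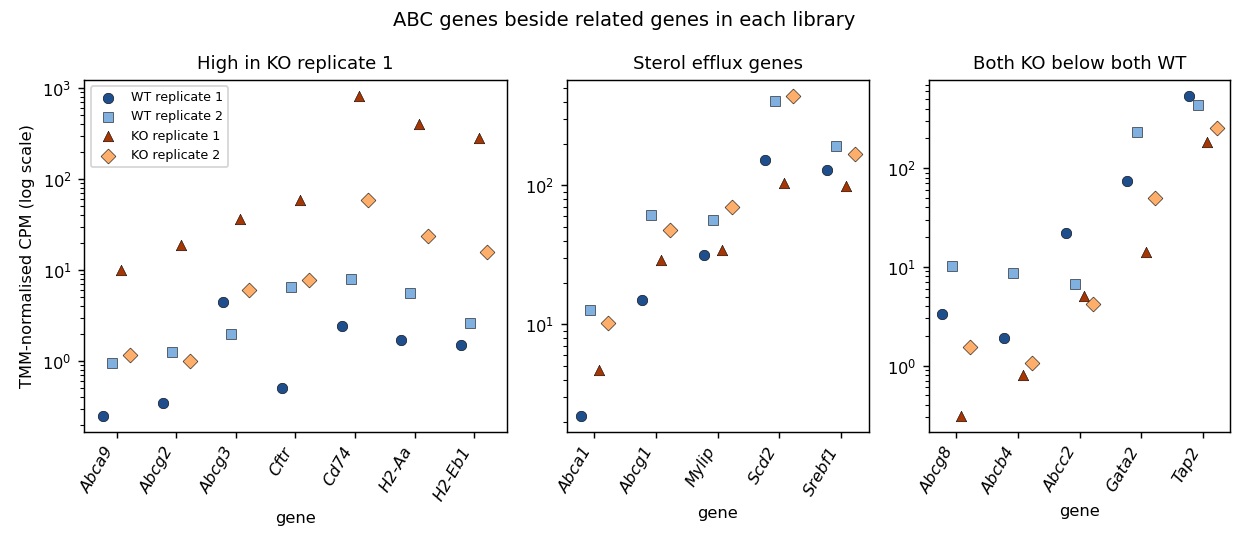
TMM-normalised CPM (log axes) in each library for ABC genes and genes set beside them in the text. Left, KO replicate 1 is the highest library for Abca9, Abcg2, Abcg3, Cftr and 3 class II genes. Middle, replicate 2 is the higher library of each genotype for Abca1, Abcg1 and 3 sterol genes. Right, both KO libraries lie below both WT libraries for Abcg8, Abcb4, Abcc2, Gata2 and Tap2.

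Abcg5 and Abcg8 encode the sterolins, which dimerise to export plant sterols and cholesterol in gut and liver. The genes point away from each other, and 109 bases at chr17:84683012-84683120, given on the plus strand towards Abcg8, lie between their starts in the window table. The stretch is shown because Abcg8 had the largest negative edgeR fold change of the 34 tested members. Capitals mark TTATCT, the other strand of the GATA core AGATAA.
Abcg8: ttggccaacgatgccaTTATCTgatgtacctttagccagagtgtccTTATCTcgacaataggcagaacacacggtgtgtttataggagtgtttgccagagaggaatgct

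The GATA core occurs 2 times in it and is found in 11.2% of all windows and 6 of the 45 windows of members. Those 6 count the overlapping windows of Abcg5 and Abcg8 separately. RefSeq also gives Abcg8 an earlier start, so that its span overlaps that of Abcg5. Abcg8 had 3.35 and 10.1 CPM in WT, against 0.309 and 1.53 in KO, from 67, 191, 5 and 26 counts. Both KO libraries were below both WT libraries, and replicate 2 was higher in both groups. The log2 fold change was -2.86 (SE 1.0, 7.27-fold, edgeR adjusted p = 0.594), and leaving out a library gave values from -1.84 (WT replicate 2) to -4.42 (KO replicate 2). Abcg5 had 3 counts or fewer in each library. Whether a GATA factor acts on Abcg8 was not tested. Of 7 mast cell and basophil markers, 5 were tested, and 4 lay above 0 with only Gata2 below. Gata2, a GATA factor of blood progenitors and mast cells, had 74.4 and 234 CPM in WT, against 14.0 and 49.3 in KO. Gata2 had its 4 libraries in the same order as Abcg8, and how many other genes do was not counted. It fell by DESeq2 (adjusted p = 0.0459), but not without WT replicate 2 (0.787) or KO replicate 1 (0.375).

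Abcb4 carries phosphatidylcholine into bile and is also known from B cells. It had 1.90 and 8.59 CPM in WT, against 0.804 and 1.06 in KO, with no overlap (log2 fold change -2.49, SE 0.90, adjusted p = 0.595). Without WT replicate 2, its highest library, the value was -1.01. The summed B cell markers were at 24.5 and 18.0 CPM in WT, against 36.2 and 25.7 in KO, nearly all of it from Cd79b, while Pax5 and Ebf1 were at 0.176 CPM or less in each library. Abcb11 and Abcb5 had no counts.

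Among the mitochondrial members, Abcb10 supports heme synthesis, Abcb6 handles porphyrins and Abcb8 acts in mitochondrial iron export. Abcb8 had 76.8 and 80.3 CPM in WT, against 57.4 and 57.6 in KO, and each pair of replicates lay within 4 CPM. Its log2 fold change was -0.45 (SE 0.19, unadjusted p = 0.0596, adjusted p = 0.672) and ran from -0.48 to -0.40 with a library left out. Abcb8 was singled out after its values were seen, and RefSeq places Cdk5 over part of its span, so that reads of the overlap may be left out of both.

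Abcb6 was also lower in both KO libraries, with 24.5 and 20.8 CPM in WT, against 15.8 and 20 in KO (log2 fold change -0.34, SE 0.30). Abcb10 had 109 and 81.2 CPM in WT, against 86.5 and 114 in KO (log2 fold change 0.07, SE 0.25). In Abcb10 the groups overlapped, and its direction turned with the library left out. All 3 were higher in KO replicate 2 than in KO replicate 1.

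All 23 heme and iron-sulfur genes found in the files were tested, 10 above 0 and 13 below, with a median of -0.077. By edgeR 0 were called, with 1 at an unadjusted p under 0.05, and DESeq2 called 0. Groups did not overlap in 8, or 34.8%, near the 37.2% of all genes. Of the 23 genes, 7 were lower and 1 was higher in both KO libraries, where 19.1% and 18.1% of all genes were. Alas1, the first enzyme of heme synthesis in non-erythroid cells, was at 475 and 521 CPM in WT, against 501 and 523 in KO. The chaperone Hspa9 had 355 and 294 CPM in WT, against 239 and 253 in KO (log2 fold change -0.40, SE 0.22).

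Peroxisomal members take in fatty acids for oxidation. Abcd2, which imports very long-chain fatty acids, had 112 and 102 CPM in WT, against 222 and 121 in KO, both above WT and KO replicate 1 far above. The log2 fold change of Abcd2 was 0.68 (SE 0.33, adjusted p = 0.738), and 0.18 without KO replicate 1. Abcd2 was singled out after its values were seen. Abcd3, the abundant peroxisomal membrane protein PMP70, had 31.9 and 32.7 CPM in WT, against 43.7 and 37.4 in KO (log2 fold change 0.33, SE 0.22, adjusted p = 0.847).

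Of 21 peroxisome genes, all were tested, with 8 above and 13 below 0 and a median of -0.06. By edgeR 0 were called, with 2 at an unadjusted p under 0.05. Phyh, which starts the breakdown of phytanic acid, fell by DESeq2, with 126 and 142 CPM in WT against 65.9 and 78.1 in KO (log2 fold change -0.90, adjusted p = 0.0487), and the call was lost with any library left out (adjusted p of 0.0610 to 0.887). In this list 7 genes were lower and 1 was higher in both KO libraries, where 19.1% and 18.1% of all genes were.

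Abcd4 releases cobalamin from lysosomes. It had 17.4 and 19.5 CPM in WT, against 13.4 and 15.2 in KO, both below WT (log2 fold change -0.36, SE 0.30, adjusted p = 0.884). The 10 cobalamin genes had 3 above and 7 below 0, with a median of -0.076, and KO lay below WT without overlap in 4, where 19.1% of all genes did. By edgeR 0 were called, also at an unadjusted p under 0.05, and DESeq2 called 0. The log2 fold change was 0.16 (SE 0.23) for the carrier Tcn2 and, for the methionine synthase gene Mtr, -0.11 (SE 0.30).

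Between replicates, the 4 members without membrane spans had a median absolute log2 ratio of 0.16 in WT and 0.11 in KO. All tested members had 0.37 and 0.52. Abce1, which splits ribosomes after termination, had 183 and 182 CPM in WT, against 147 and 153 in KO. Abcf1, which assists translation initiation, had 207 and 201 CPM in WT, against 143 and 177 in KO. Abcf2 had 155 and 128 CPM in WT, against 111 and 120 in KO. In these 3 of the 4 genes both KO libraries were below both WT libraries, where 19.1% of all genes were. Their log2 fold changes were -0.28 (SE 0.19, adjusted p = 0.845), -0.35 (SE 0.22, adjusted p = 0.811) and -0.29 (SE 0.21, adjusted p = 0.853). All 3 stayed negative under each alternative run. Abcf3 had 44.0 and 56.1 CPM in WT, against 43.7 and 47.0 in KO, where the groups overlapped, with -0.14 (SE 0.23).

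Of the 23 ribosome recycling and eIF2 genes, 22 were tested, 9 above 0 and 13 below, with a median of -0.093. Groups did not overlap in 8 of the 22, or 36.4%, near the 37.2% of all genes. Of the 22, 2 were higher and 6 lower in both KO libraries, where 18.1% and 19.1% of all genes were. By edgeR 0 were called, also at an unadjusted p under 0.05, and DESeq2 called 0. Etf1 and Gspt1, the release factors that act just before Abce1, were lower in both KO libraries: Etf1 at 246 and 270 CPM in WT, against 202 and 231 in KO, Gspt1 at 227 and 228 CPM in WT, against 176 and 190 in KO. Pelo, the rescue factor that works with Abce1 on stalled ribosomes, had 27.2 and 31.4 CPM in WT, against 34.1 and 22.9 in KO. The other most abundant gene of the list, Eif1, had a log2 fold change of 0.34 (SE 0.21). Gspt1 and Pelo were named after their values were seen.

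Further members were near or below detection. The 8 members without a count in any library were Abca8a, Abca12, Abca15, Abca16, Abcb5, Abcb11, Abcc6 and Abcc12. Another 8 had counts but were not tested: Abca4, Abca5, Abca14, Abca17, Abcb1a, Abcc9, Abcg4 and Abcg5. Abcc9, a regulatory subunit of potassium channels, had 6 and 24 counts in WT and 1 count in each KO library. Its relative Abcc8 had 6.15 and 3.55 CPM in WT, against 3.59 and 4.99 in KO. Abcb9, a lysosomal peptide transporter, had 9.85 and 7.90 CPM in WT, against 7.42 and 15.6 in KO (log2 fold change 0.37, SE 0.49).

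The antigen peptide transporter is an ABC dimer named outside the rule. Its subunit gene Tap2 fell by DESeq2, with 539 and 431 CPM in WT against 184 and 256 in KO (log2 fold change -1.14, SE 0.27, edgeR adjusted p = 0.444, DESeq2 adjusted p = 0.0190). DESeq2 kept that call without KO replicate 2 (adjusted p = 0.00142) and lost it without KO replicate 1 (0.189), WT replicate 1 (0.779) or WT replicate 2 (0.143). The partner Tap1 had 113 and 115 CPM in WT, against 80.7 and 101 in KO (log2 fold change -0.33, SE 0.21).

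RefSeq promoter windows were found for 38 of the 50 members, 45 windows in all. The GC box GGGCGG was in 46.7% of them and in 35.7% of all windows, on either strand. The TATA box TATAAA was in 15.6% and 13.6%, and CCAAT in 35.6% and 37.4%. TGGGAA, a core bound by Ikaros-family factors, was in 20% of the members' windows and 25.6% of all.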

How the data were processed

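RNA-seq libraries (2 WT, 2 KO) were analysed from the deposited files, which hold raw counts per gene symbol with no normalization by the authors. Build mm10 and, with no role attached, Picard, HTSeq, STAR 2.3.0, MACS2 and Bowtie2 2.2.5 stand in the submitters' processing notes. The annotation and the strand setting were not given there. The 5 closing rows of unassigned reads, 69.3% to 72.4% of all counts, were left out. The 4 chromatin accessibility samples were not analysed here. Libraries of 1 group differed by more than sampling noise (chi-square per degree of freedom 84.6 in WT, 115 in KO).

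Genes passing the default filterByExpr of edgeR 4.0.16 (R 4.3.3) were scaled with TMM and tested by the robust quasi-likelihood F-test with Benjamini-Hochberg adjustment over 12623 genes at 0.05. SE is the log2 fold change over the square root of F. DESeq2 1.42.0 and limma 3.58.1 (voom) were alternatives, as were other scalings, filters, a replicate block and leaving out each library. In fits with 1 library left out, edgeR kept the same 12623 genes. The scripts were tested on simulated counts with a small spread between replicates, so this check says nothing of power at the spread seen here. Coordinates and promoters are RefSeq's for GRCm38.p6, the assembly mm10 names.

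Members and lists were chosen with earlier results of these data known. Named in full were members called by edgeR or DESeq2 (there were 0), the 3 of smallest p per direction, 10 for textbook roles; list genes were those DESeq2 called, or else the 2 of highest mean CPM. Some genes are not reported here one by one, among them 2 tested members, which stay in the fits, counts and sums. A level per kilobase and protein comparisons had been planned and were not run, because exon lengths and proteins were not at hand. As the rule for the highest member per kilobase could not be applied, Abca2, Abca3, Abca7, Abca13 and others are given for their roles.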

Additional observations from a re-analysis of the deposited data

How the results depend on the processing

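With library sizes alone as scaling the median log2 fold change of all genes moved from -0.0043 to -0.069. Over all genes edgeR called 0; it called 4 with no filter on low counts and 11 with a replicate block, DESeq2 called 352, and the other edgeR and voom fits called 0. With 1 library left out edgeR called 0 to 197 and DESeq2 162, 178, 384 and 390. No ABC gene was called with all 4 libraries in any of these fits. With 1 library left out edgeR called 0 members and DESeq2 1, 3, 0 and 6 (without WT replicates 1 and 2 and KO replicates 1 and 2), chosen as an alternative after seeing the data: Abcg3 without WT replicate 1, Abca9, Abcc2 and Abcg2 without WT replicate 2, and Abca2, Abca9, Abcd2, Abcg2, Abcg3 and Abcg8 without KO replicate 2. With a lone library in a group, its spread is taken from the other group. There the family median ranged from -0.33 to 0.069 in edgeR, and in DESeq2 it was 0.080 without KO replicate 1 and -0.32 without KO replicate 2. Leaving out libraries gave log2 KO to WT ratios of -0.68 to 0.23 for the sum of subfamily A, -0.26 to 0.0069 for B, -0.28 to 0.27 for C, 0.16 to 0.39 for D, -0.32 to -0.25 for E, -0.41 to -0.20 for F and -0.084 to 1.60 for G. The ratio for E was -0.28 and became -0.35 with library sizes alone. Over the other scalings, filters, tests, the block and the edgeR leave-outs, direction was not kept throughout for 18 of the 34 tested members. Among the 17 described in full it turned for 5. Abca1 and Abcg1 were -0.057 and -0.059 with library sizes alone and -0.020 and -0.022 with upper quartile scaling, and Abcb1b was 0.35 by voom and 0.27 with the replicate block. With 1 library left out edgeR values ran from -0.76 to 1.77 for Abca1, -0.68 to 1.36 for Abcg1, -1.31 to 2.01 for Abcb1b, -0.68 to 0.11 for Abcc1 and -0.14 to 0.31 for Abcb10. Where DESeq2 turned the direction, it gave -0.75 and -0.65 for Abca1, -0.67 and -0.39 for Abcg1, 2.01 for Abcb1b, 0.0077 and 0.13 for Abcc1 and -0.11 and -0.14 for Abcb10; the cause was not tested. The labels do not say that replicate numbers pair libraries. Deviations of same-numbered libraries correlated at 0.167 over 12646 genes, which with 2 pairs does not establish pairing, and the replicate block called 0 members. The alternative of dividing by the longest transcript was not run, since transcript lengths were not at hand.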
